A study of Drosophila melanogaster with 3 samples.

Results

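Insulator and architectural proteins fold the Drosophila genome, and the 10 genes that encode a set of them were followed here: Chro, M1BP, Cp190, Trl, BEAF-32, CTCF, su(Hw), mod(mdg4), pita and Dref. The genes were taken from a list of names, out of 13968 protein-coding genes on the main chromosomes. This list was chosen with earlier results of these data known. Every peak whose summit lay in the gene body or within 5 kb of it was collected, which gave 13 of the 5048 peaks in the authors' optimal list. The peaks came from chromatin immunoprecipitation followed by sequencing with an antibody against GFP. The chromatin was sonicated and came from whole Drosophila melanogaster prepupae of pooled sex and unknown age. The flies belonged to the transgenic strain CG11762-GFP, in which GFP is fused to the C terminus of CG11762, the zinc-finger protein ouija board (gene ouib). The series held 1 group of 3 biological replicates and no second condition, so values are described without a test. Whole animals were used, so the tissue behind a peak cannot be told apart, and peak lists hold no expression values with which the labelled sample could be checked.

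Insulators are DNA elements that block contacts between enhancers and promoters or mark the borders of chromatin domains. In Drosophila, DNA-binding proteins such as BEAF-32, CTCF, su(Hw) and pita recognise these elements, and cofactors such as Cp190, mod(mdg4) and Chro are recruited by them. A related group, made up of M1BP, Dref, BEAF-32 and the GAGA factor Trl, binds near the starts of genes. Ouib belongs to the ZAD zinc-finger family, which also includes M1BP and pita, and is known from the prothoracic gland, the source of the steroid hormone ecdysone.

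Signal in the optimal list ran from 61.1 to 1303, with a median of 101.6, on the authors' own scale, which is not stated. For values in each replicate, the authors' signal was set relative to the replicate itself, as a ratio to the median of its 5048 best peaks, so that 1 is the level of a typical strong peak. These medians were 34.4, 45.1 and 24.8 in replicates 1, 2 and 3. Each replicate list and the pooled list held 30000 peaks, weak background included. Library depth is unknown, because the lists give no read counts.

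Sequences beneath the strongest peaks of Chro, M1BP, Cp190, Trl and Dref, and beneath the peak upstream of mod(mdg4), are shown first, to show the letters behind the motif and base composition counts given later. All are on the plus strand of dm6, from the NCBI RefSeq copy of the genome, and are in lower case with matches to a searched motif in capitals. The 30 bases for Chro (chr3L:22878880-22878909) were cut around the CGATA match near its summit and include that summit. CGATA are the letters that BEAF-32 recognises. The 200 bp window at the Chro summit also holds TATAAAA, 63 bp from the summit and outside the printed bases. The 200 bases centred on the M1BP summit (chr3R:8731839-8732038) carry the TATA letters TATAAAA once and their reverse complement TTTTATA at 2 further places. The 200 bases at the Cp190 summit (chr3R:15275255-15275454) match none of the motifs. The 200 bases at the strongest Trl intron summit (chr3L:14759413-14759612) hold TTTTATA. The 200 bases at the summit upstream of mod(mdg4) (chr3R:21378641-21378840) hold TTTTATA at 2 places and TGCATA, the core letters used here for su(Hw). The 83 bases between the starts of Dref and RpL13 (chr2L:9967230-9967312) contain the Dref summit and a CGATA match.
Chro: tgtattgcctgtCGATAgctttaaactaac
M1BP: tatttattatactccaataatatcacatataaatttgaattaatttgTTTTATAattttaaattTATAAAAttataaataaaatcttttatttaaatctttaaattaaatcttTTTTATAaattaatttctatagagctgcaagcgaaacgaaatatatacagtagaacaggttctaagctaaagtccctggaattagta
Cp190: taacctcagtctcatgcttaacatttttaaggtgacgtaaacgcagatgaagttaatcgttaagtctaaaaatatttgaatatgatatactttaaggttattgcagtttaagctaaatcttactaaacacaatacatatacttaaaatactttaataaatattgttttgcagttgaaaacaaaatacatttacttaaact
Trl intron: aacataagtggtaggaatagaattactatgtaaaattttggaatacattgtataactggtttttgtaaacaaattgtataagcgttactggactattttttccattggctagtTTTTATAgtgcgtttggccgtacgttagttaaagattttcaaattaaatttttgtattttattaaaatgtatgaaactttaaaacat
mod(mdg4) upstream: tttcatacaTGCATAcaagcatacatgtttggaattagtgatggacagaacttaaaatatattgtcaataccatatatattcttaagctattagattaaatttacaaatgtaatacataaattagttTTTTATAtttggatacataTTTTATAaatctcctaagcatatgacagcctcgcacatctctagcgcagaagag
Dref to RpL13: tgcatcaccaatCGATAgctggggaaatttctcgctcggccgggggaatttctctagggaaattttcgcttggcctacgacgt

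Optimal summits were found in or within 5 kb of 7 of the 10 genes: Chro, M1BP, Cp190, Trl, BEAF-32, mod(mdg4) and Dref. Across all protein-coding genes the share was 42.8%. A promoter summit, meaning one within 500 bp of any annotated transcription start site (TSS) of the gene itself, was found for 6 of the 10, all of these but mod(mdg4), against 14.8% of all protein-coding genes. Of the 13 summits, 7 were at promoters, 5 in introns and 1 in an upstream flank, and 0 lay in coding exons. The 10 genes had a mean of 1.3 optimal summits each, against 0.785 for all protein-coding genes. They were also longer, with a median length of 4472.5 bp against 2164.5 bp for all protein-coding genes. Because the 10 genes were chosen with earlier results known, their counts beside the shares of all genes are a description only.

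**Figure D1:**
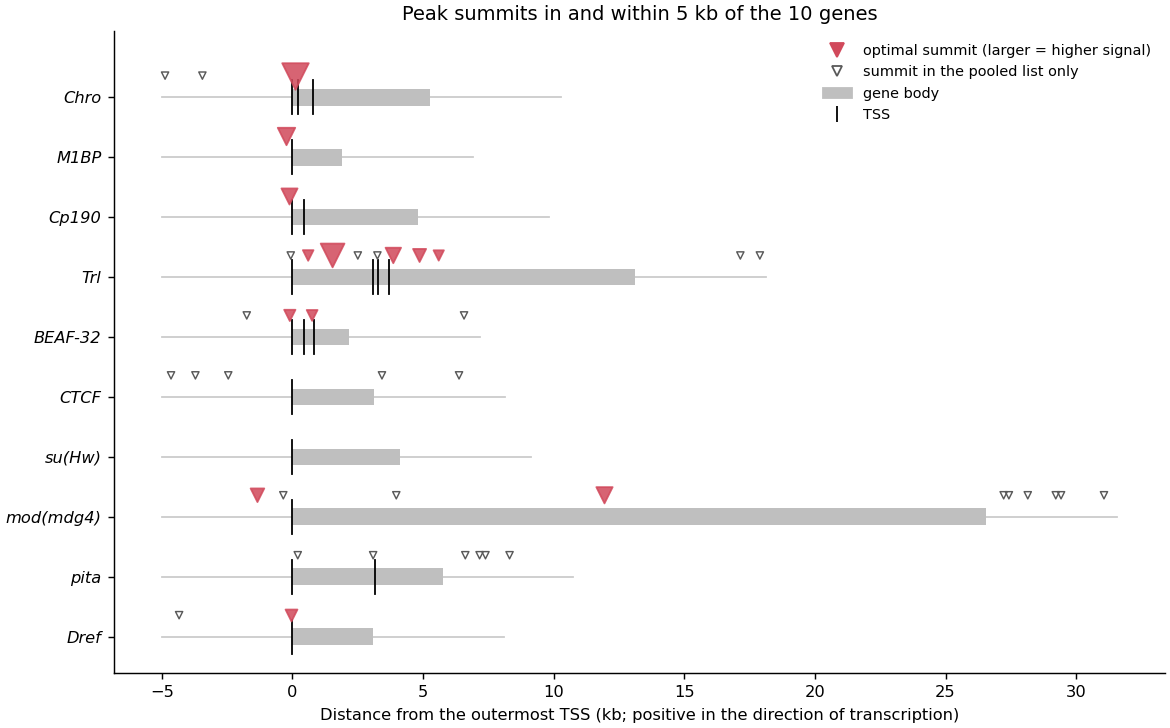
Positions of peak summits around the 10 genes, with the distance from the outermost TSS in kb on the x axis and the genes on the y axis. Filled triangles are the 13 optimal summits, sized by the authors' signal, and open triangles are summits found only in the pooled list; su(Hw) has neither.

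Since long genes offer more places for a summit, shares were also read by gene length. The only gene of up to 2000 bp, M1BP, had a promoter summit, where 34% of all genes of that length had a summit in or within 5 kb and 9.66% had one at a promoter. Between 2000 and 5000 bp, 3 of 5 genes (Cp190, BEAF-32 and Dref, but not CTCF or su(Hw)) had a promoter summit, against 16.9% of all genes of that length. The wider window gave the same 3 of 5, against 43.8%. Between 5000 and 10000 bp, Chro had a promoter summit and pita had none in either window, where 52.4% of all genes had a summit in the wider window and 20.1% at a promoter. Both genes above 10000 bp, Trl and mod(mdg4), had summits in the wider window and Trl had one at a promoter, against 62.5% and 23.7% of all genes of that length. With 1 to 5 genes in a class, these counts describe the named genes and say nothing about genes of their kind.

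The longer lists added weaker peaks mainly outside promoters. In the pooled list 42 summits lay in or within 5 kb of 9 of the 10 genes, all but su(Hw). Of these, 12 were at promoters, 7 in introns, 8 in upstream flanks and 15 in downstream flanks. The lists of replicates 1, 2 and 3 held 53, 46 and 58 such summits, and each list had at least 1 for every gene. For the full pooled list and these replicate lists, the share of all protein-coding genes with such a summit was not counted. Among the 10096 strongest pooled peaks alone, 59% of all protein-coding genes had one, as did 9 of the 10. The gene counts in the longer lists therefore describe the 10 genes only. At promoters the 3 replicates were close, with 15, 15 and 17 summits, and in introns they had 7, 7 and 10. Trl and mod(mdg4), the longest genes, had 10 pooled summits each, and 6 of those at mod(mdg4) lay beyond its 3′ end.

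Among the cofactors, Chro gave the strongest peak of the set. Chro encodes Chromator, a chromodomain protein of polytene interbands that works with BEAF-32. The gene (FBgn0044324, minus strand, 3L from 22873702 to 22878984) has 3 annotated TSSs. Its only optimal peak spanned 22878731 to 22879070, with the summit 81 bp downstream of the outermost TSS, inside the 5′ UTR of the transcript that starts there. The authors' signal of 981 was the 9th highest in the optimal list and the 4th highest among the 2071 genes with a promoter summit. Relative signal was 8.46, 10.5 and 9.05 in replicates 1, 2 and 3, a mean of 9.33 ± 1.04 (SD, n = 3). All 3 replicates were high, at ranks 14, 6 and 10 in their own lists, and their summits lay within 23 bp of the optimal summit. The CGATA printed above is 9 bp from that summit. The start of Ssl1, which encodes a subunit of the general transcription factor TFIIH, lies 105 bp away on the opposite strand and 186 bp from the summit.

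Cp190 encodes a BTB zinc-finger cofactor that most fly insulator complexes share. The gene (FBgn0000283, minus strand, 3R from 15270432 to 15275241) had 1 optimal peak, from 15275261 to 15275378. Its summit was 113 bp upstream of the outer TSS and lay between that TSS and the start of the divergent gene CG4338, 281 bp apart. The RNA gene asRNA:CR46081 starts 863 bp from the summit. Relative signal was 1.99, 3.29 and 2.90 in replicates 1, 2 and 3, with a mean of 2.73 ± 0.669 (SD, n = 3). Replicate 1 was the lowest, at rank 797, against ranks 257 and 311 in replicates 2 and 3, and every replicate was above the typical best peak. Summit positions moved by at most 27 bp. The lists of replicates 1 and 2 each split the region into 2 peaks, of which the stronger was taken.

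The third cofactor gene, mod(mdg4), encodes BTB proteins whose differing C termini are joined by trans-splicing, and one such protein is the partner of su(Hw) in the gypsy insulator. The gene (FBgn0002781, minus strand, 3R from 21350846 to 21377401) is 26556 bp long with 22 annotated transcripts. It had no optimal summit at its own TSS. The stronger of its 2 optimal peaks, from 21365409 to 21365535, was in the gene body, 11945 bp downstream of the TSS. Relative signal there was 2.87, 3.25 and 2.34 in replicates 1, 2 and 3, a mean of 2.82 ± 0.455 (SD, n = 3). All 3 replicates placed their summit within 30 bp of the optimal one, at ranks 347, 268 and 557, and all were well above 1.

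That summit sits where separately transcribed mod(mdg4) segments begin. It lay 32 bp from the annotated start of pre-mod(mdg4)-E on the minus strand, within its 5′ UTR. On the plus strand, the shared start of pre-mod(mdg4)-Y, -AD, -X, -W, -V, -U and -AE was 153 bp away, and the start shared by -C and -AB on the minus strand was 166 bp away. These units supply 3′ segments for trans-splicing onto the common mod(mdg4) exons. A label of intron for this peak, which follows the mod(mdg4) gene model, therefore hides a cluster of starts.

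A second peak lay upstream of mod(mdg4), from 21378542 to 21378937, 1339 bp from its TSS. Relative signal was 1.35, 1.62 and 2.65 in replicates 1, 2 and 3, a mean of 1.88 ± 0.682 (SD, n = 3). Replicate 3 was the highest, at rank 414, against ranks 1577 and 1171 in replicates 1 and 2. The start of tin, the homeobox gene tinman of heart development, was closer to this summit, at 237 bp, than the mod(mdg4) TSS. At the mod(mdg4) TSS itself a peak 350 bp upstream ranked 15623 in the pooled list, with relative signal of 0.339 in replicate 1 and 0.319 in replicate 3, and no peak in replicate 2.

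**Figure D2:**
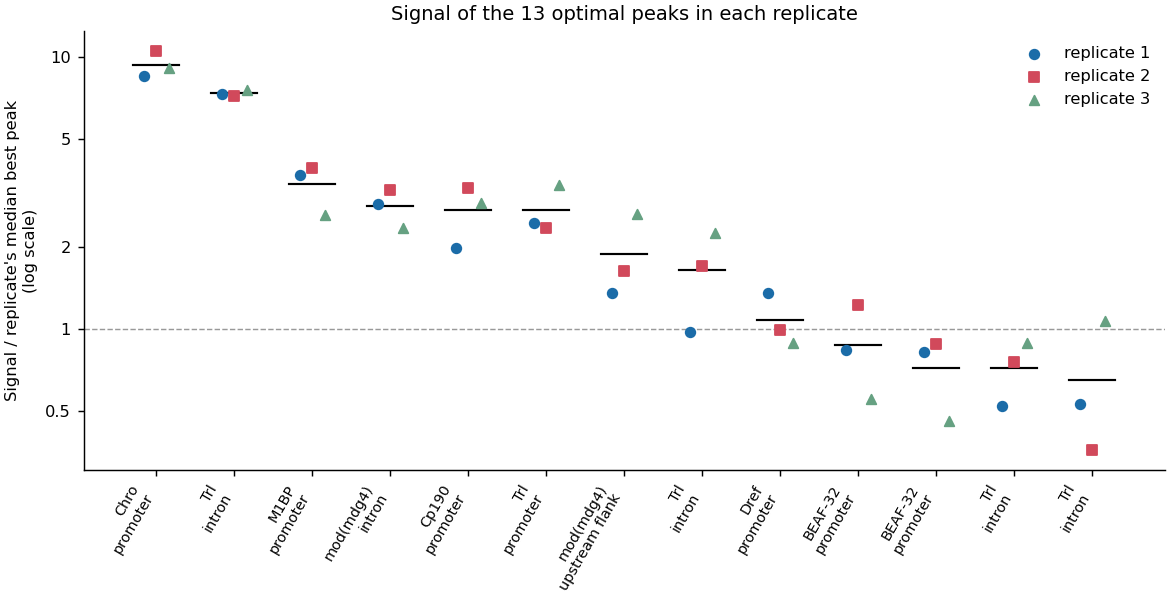
Relative signal (y axis, log scale; 1 is the median over a replicate's own 5048 best) of the 13 optimal peaks (x axis, ordered by mean), with a marker per replicate and a bar at the mean of 3. The Chro promoter and the strongest Trl intron peak are above 7 in every replicate, and the 4 weakest peaks have means between 0.650 and 0.871.

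Among the promoter-binding factors, Trl had the most peaks. Trl encodes the GAGA factor, which binds GAGAG repeats and keeps promoters free of nucleosomes. The gene (FBgn0013263, minus strand, 3L from 14747929 to 14761049) is 13121 bp long and had 5 optimal summits. Such a number was reached by 275 protein-coding genes, 1.97% of all and 11.4% of those above 10000 bp. The strongest, from 14759360 to 14759689, was in the intron 1537 bp downstream of the outermost TSS and ranked 24th in the optimal list. Relative signal was 7.31, 7.17 and 7.52 in replicates 1, 2 and 3, a mean of 7.33 ± 0.179 (SD, n = 3). This was the smallest spread among the 13 peaks, with ranks of 26, 29 and 22. In replicate 3 the region was split into 2 peaks, of which the stronger was taken.

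The other Trl peaks were weaker. The promoter peak, from 14757116 to 14757284, lay 148 bp downstream of an inner TSS and 3861 bp into the gene, with relative signal of 2.45, 2.34 and 3.38 in replicates 1, 2 and 3 (mean 2.72 ± 0.573, SD, n = 3). It is within the 5′ UTR of Trl transcripts and of CG42507, a gene model on the same strand that overlaps Trl and starts 774 bp away. Replicate 3 was the highest there. The intron summit at 14756182 had relative signal of 0.971, 1.70 and 2.26 (mean 1.64 ± 0.644, SD, n = 3), again highest in replicate 3. The last 2, at 14760446 and 14755449, had means of 0.719 ± 0.187 and 0.650 ± 0.370 (SD, n = 3 each). Neither overlapped a best peak in all 3 replicates. The peak at 14760446 overlapped one in replicates 2 and 3, and that at 14755449 in replicate 3 alone. For the peak at 14760446, the replicate 3 value came from the stronger of 2 overlapping peaks, at rank 3067. Its summit was 235 bp away, and the nearer replicate 3 peak ranked 6012, outside the best.

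M1BP encodes the protein that binds the core promoter element Motif 1, found at many constitutive genes with paused RNA polymerase. The gene (FBgn0037621, minus strand, 3R from 8729790 to 8731698) had 1 optimal peak, from 8731933 to 8732092, with its summit 240 bp upstream of the TSS. Relative signal was 3.66, 3.91 and 2.62 in replicates 1, 2 and 3, with a mean of 3.40 ± 0.687 (SD, n = 3). Replicate 3 was the lowest, at rank 435 against 174 and 154, and its list split the region into 2 peaks. The divergent gene CG8202 starts 393 bp from M1BP and 153 bp from the summit, which is between both starts. The tagged gene ouib itself (FBgn0037618, 3R from 8725479 to 8726730) is 3.06 kb from M1BP, and 0 optimal and 0 pooled summits lay within it.

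Dref encodes the factor that binds the DNA replication-related element, TATCGATA, at promoters of growth and replication genes. The gene (FBgn0015664, minus strand, 2L from 9964147 to 9967229) had 1 optimal summit, 51 bp upstream of its TSS, with an authors' signal of 117. Relative signal was 1.36, 0.992 and 0.885 in replicates 1, 2 and 3, with a mean of 1.08 ± 0.248 (SD, n = 3). All 3 values were near that of a typical best peak. The replicate 2 value came from the stronger of 2 overlapping peaks, with its summit 155 bp away and downstream of the TSS. The nearer replicate 2 peak ranked 3896. Its place, 1004th of the 2071 genes with a promoter summit, was near the middle. The start of RpL13, a ribosomal protein gene, lies 84 bp away and only 33 bp from the summit.

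BEAF-32 encodes the boundary element-associated factor that binds CGATA clusters near divergent promoters. The gene (FBgn0015602, plus strand, 14770469 to 14772630) had 2 optimal summits, 100 bp upstream of its outer TSS and 78 bp upstream of an inner one. The outer peak had relative signal of 0.837, 1.23 and 0.550 in replicates 1, 2 and 3, a mean of 0.871 ± 0.339 (SD, n = 3). The inner peak had 0.821, 0.882 and 0.456, a mean of 0.720 ± 0.230 (SD, n = 3). Replicate 3 was the lowest at both, at ranks 6000 and 7800, below its 5048 best peaks. At the inner peak its value came from the stronger of 2 overlapping peaks, with a summit 167 bp away. The nearer replicate 3 peak ranked 18191. The antisense RNA gene asRNA:CR42254 starts 99 bp from the outer summit and 72 bp from the inner one, and Spred starts 946 bp from the outer one.

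**Figure D3:**
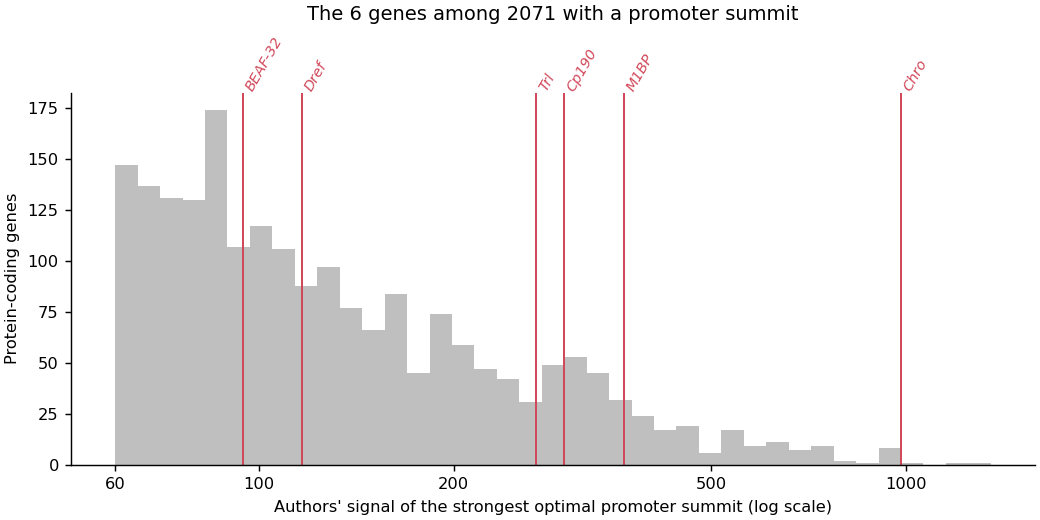
Number of protein-coding genes (y axis) by the authors' signal of their strongest optimal promoter summit (x axis, log scale) for all 2071 genes with one, with lines at the 6 named genes. Chro is the 4th highest, M1BP, Cp190 and Trl are above the upper quartile of 193, and Dref and BEAF-32 are on either side of the median of 113.

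Across all 2071 genes with a promoter summit, the quartiles of promoter signal were 81.0, 113 and 193 on the authors' scale. M1BP was 146th, Cp190 261st, Trl 319th and BEAF-32 1270th. Genes that share a summit are each counted, so these are places among genes and not among distinct peaks. The pre-mod(mdg4) units that share the mod(mdg4) gene-body summit, for example, all stand above Cp190 and Trl. Among the 500 strongest optimal peaks, 4 of the 10 genes (Chro, M1BP, Cp190 and Trl) kept a promoter summit, against 2.42% of protein-coding genes. With the body and 5 kb window, 5 of the 10 had a summit among these 500, mod(mdg4) being the addition, against 8.4% of protein-coding genes.

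Peaks at 4 of the 6 promoters (Chro, M1BP, Cp190 and Dref) were shared with a protein-coding gene that starts on the opposite strand within 500 bp of the summit. The same held for 1059 of the 2071 genes with a promoter summit, 51.1%, so sharing was common. At M1BP, Cp190 and Dref the summit was between the 2 starts. At Chro it was not: it lay on the Chro side of both. Which gene of a pair a peak belongs to cannot be told apart from position, and the signal of these 4 peaks is as much that of Ssl1, CG8202, CG4338 and RpL13.

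CTCF, su(Hw) and pita, which encode 3 of the zinc-finger proteins that recognise insulator DNA, had 0 optimal summits in or within 5 kb. CTCF is the fly form of the insulator protein known from vertebrates, su(Hw) binds the gypsy insulator, and pita is a ZAD protein of the bithorax boundaries. Their nearest optimal summits were 27635 bp (CTCF), 16156 bp (su(Hw)) and 10046 bp (pita) from a TSS. Among all protein-coding genes the median of this distance was 8658 bp, and 19.7%, 32.9% and 46.1% of genes were at least as far as CTCF, su(Hw) and pita.

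Weaker peaks near these genes differed between the lists. The strongest pooled peak at pita (FBgn0034878, minus strand, 23548967 to 23554712) was in the downstream flank, at rank 5365 with an authors' signal of 58.2, which is 95.2% of the lowest optimal signal. The strongest promoter peak of pita had relative signal of 0.689, 0.343 and 0.543 in replicates 1, 2 and 3, and the summit taken was at the inner TSS in replicates 1 and 3 and at the outer TSS in replicate 2. At CTCF (FBgn0035769, minus strand, 3L from 7353578 to 7356713) the strongest pooled peak was 3714 bp upstream at rank 5859, with 88.3% of the lowest optimal signal. Its promoter had no peak in replicate 1 and weak ones in replicates 2 and 3, with relative signal of 0.340 and 0.192.

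At su(Hw) (FBgn0003567, minus strand, 3R from 14304455 to 14308589) the replicate lists and the pooled list differed. A peak 359, 344 and 347 bp upstream of its TSS stood in the lists of replicates 1, 2 and 3, at ranks 4926, 10638 and 8312, with relative signal of 0.645, 0.317 and 0.436. In replicate 2 a different peak was the strongest at the promoter, 443 bp downstream of the TSS, at rank 8761 with relative signal of 0.370. The pooled list held no summit in the whole su(Hw) window of 14.135 kb, and the nearest pooled summit was 14013 bp from the TSS. A peak within 500 bp of a TSS in all 3 replicate lists with none in the pooled list was found at 98 protein-coding genes, 0.702%. Among each replicate's best peaks, 1.25%, 0.753% and 1.47% in replicates 1, 2 and 3 overlapped no pooled peak. What removed the upstream su(Hw) peak from the pooled list was not tested.

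The picture from each replicate's own list did not pass through the optimal list. A promoter peak among the 5048 best was found for 8, 6 and 5 of the 10 genes in replicates 1, 2 and 3, against 15.1%, 15% and 14.6% of all protein-coding genes. The additions in replicate 1 were su(Hw) and pita, both close to the limit, at ranks 4926 and 4455. Chro, M1BP, Cp190, Trl and Dref had such a peak in all 3 replicates, for which the share of all protein-coding genes was not counted. A related count took optimal summits that overlapped a best peak of every replicate. These lay at promoters of the same 5 genes, against 10.2% of all protein-coding genes. When every listed peak counted, weak ones included, 8 of the 10 genes had a promoter peak in all 3 replicates, against 26.7% of all protein-coding genes, and 8 had one in the pooled list, against 40.1%.

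**Figure D4:**
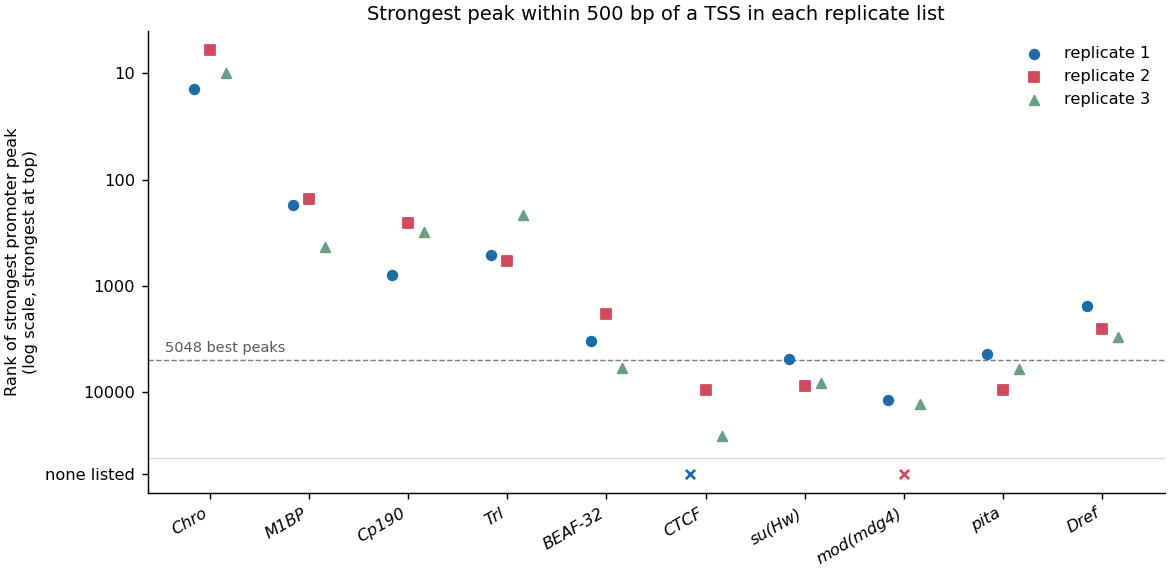
Rank of the strongest peak within 500 bp of a TSS (y axis, log scale, strongest at the top) for each of the 10 genes (x axis) in the lists of replicates 1, 2 and 3; crosses mark lists with no such peak. Chro stays at rank 14 or higher in every replicate, while CTCF and mod(mdg4) are below the dashed line at 5048 or absent in each.

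Overlap with the best peaks of every replicate was found for 9 of the 13 optimal peaks (69.2%), against 66.4% of all 5048, a share near that of the whole list. For each peak, the largest shift of a replicate's summit from the optimal summit had a median of 42 bp and ran from 23 to 235 bp. Peaks narrower than the usual width of 396 bp numbered 6 of the 13, against 12.8% of all optimal peaks and 85.4% of the 500 strongest. The 6 narrow ones were the 6 strongest of the set.

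Summits of the set were mostly AT-rich, as optimal summits were in general. The 200 bp windows at the 13 summits had a mean GC content of 33%, from 18.5% to 47%, against 34.4% at all optimal summits, 42.1% in windows 1000 bp to each side of these and 42.3% at the TSSs of protein-coding genes. The M1BP window was the poorest in GC, at 18.5%, and only 7 of the 5048 optimal windows were at or below it. The Cp190 window had 25% and the strongest Trl intron window 25.5%, while the Trl promoter window had 47% and the Dref window 44%. At the strongest peak, that of Chro, GC content was 38%.

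Motif matches at the 13 summits were few. Each motif was searched on both strands in 200 bp windows, and a match is a string of letters only. TATAAAA was in 4 windows (30.8%), against 18.0% at all optimal summits and 9.17% in the flanking windows. GAGAG, the repeat read by the GAGA factor, was in 1 window (7.69%), against 21.8% at all optimal summits and 23.0% in the flanks. CGATA was in 2 windows (15.4%), Chro and Dref, against 22.3% at all optimal summits and 21.5% in the flanks. TGCATA was in 2 windows (15.4%), both at mod(mdg4), against 16.4% at all optimal summits and 12.7% in the flanks. TATCGATA, which contains CGATA, was in 0 of the 13 windows, against 1.43% at all optimal summits. GGTCACAC, the letters used for Motif 1, and AGNNGGCGC, a core of the CTCF motif, were also in 0 windows, against 1.01% and 1.45% at all optimal summits.

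Letters absent from the summits were present at some of the genes' own starts. TATCGATA was within 100 bp of a TSS of 4 of the 10 genes (Cp190, CTCF, mod(mdg4) and pita), against 8.48% of all protein-coding genes. At pita it was 64 bp upstream of the outer TSS. Of these 4 genes, only Cp190 had a promoter summit, whereas 5 of the 6 genes without the element had one. Across the genome, 16.7% of genes with TATCGATA at a TSS had a promoter summit, against 14.7% of genes without it. These 2 shares were close, and 10 genes are too few to draw on.

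Elements at the starts are shown as 30 bases of the plus strand of dm6, with the matched letters in capitals, to set starts with and without an optimal promoter summit side by side. At Cp190 an element is 17 bp upstream of the inner TSS (chr3R:15274793-15274822) and another spans the outer TSS (chr3R:15275227-15275256). At CTCF it is 17 bp upstream (chr3L:7356716-7356745) and at mod(mdg4) 50 bp upstream (chr3R:21377437-21377466). At su(Hw), GTGTGACC, the reverse complement of GGTCACAC, is 9 bp downstream of the TSS (chr3R:14308566-14308595).
Cp190 inner: caactcgcaaaTATCGATAtacgcctgtgt
Cp190 outer: cgctcggcagcTATCGATAgccatgcgata
CTCF: gtaccgccagcTATCGATAgttcgattggt
mod(mdg4): aagtgacaataTATCGATAgcttaaaatat
su(Hw): atgaaaattcaGTGTGACCgttgcatgtag

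A list of 25 other genes of chromosome architecture was read in the same way. It holds further insulator proteins, cohesin and condensin subunits, and chromatin partners of the 10 genes. Promoter summits were found for 6 of the 25 (24%), against the 14.8% of all protein-coding genes given above, and summits in or within 5 kb for 12 (48%), against 42.8%. With only peaks among the best of both other replicates, leaving out replicate 2 or replicate 3 gave 3 of the 25 at promoters (12%; lolal, Nup98-96 and psq), against 10.9% and 11.7% of all protein-coding genes, and leaving out replicate 1 gave 4 (16%), against 11.1%. The strongest of the 6 promoter summits was at lolal, which encodes a small BTB partner of the GAGA factor, with relative signal of 1.35, 1.50 and 1.66 in replicates 1, 2 and 3 (mean 1.50 ± 0.157, SD, n = 3). Nup98-96, which encodes nucleoporins, followed with 1.75, 0.917 and 0.899 (mean 1.19 ± 0.487, SD, n = 3), highest in replicate 1. Cap-H2, a condensin II subunit gene, and psq, a gene for another protein that binds GAGAG, had means of 0.749 ± 0.266 and 0.698 ± 0.260 (SD, n = 3 each). At pzg, which encodes the Chromator partner Z4, relative signal was 0.266, 1.03 and 0.282, so that replicate 2 stood above the others. SA1, a cohesin subunit gene, had 0.415 in replicate 1 and 0.547 in replicate 3, and no overlapping peak in replicate 2. No promoter summit was found for the other 19, among them the cohesin genes SMC1, SMC3, vtd and Nipped-B and the insulator genes Ibf1, Ibf2, dwg and ZIPIC.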

How the data were processed

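Positions are on dm6, counted from 1. The labels name 3 biological replicates of 1 group, and their dm6 peak lists were used. The file lists deposited with the samples record how each list was derived: a replicate list from 1 alignment and a control, the pooled list from all 3 alignments and a control, and the optimal list from these, by irreproducible discovery rate. The names of the aligner and the peak caller are not given in the sources used. Control libraries and the dm3 lists were not analysed here. Every deposited peak has a signal value set by the authors, on a scale that is not stated and that differs between lists. It also has a −log10 q-value, as the deposited layout names it, which was not used for ranking. Depth is unknown, so precision rests on the spread of 3 replicates. Identical intervals numbered 0, 0 and 1 between pairs of replicates, which were counted as 3 samples.

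Summits were placed on gene models of Ensembl release 115, and sequence came from the NCBI RefSeq copy of the same assembly. A summit within 500 bp of any TSS of the gene itself was called promoter, whatever other genes start nearby. Other summits were called coding exon if inside one, then UTR, then intron, then flank. A replicate peak was matched to an optimal peak by an overlap of 1 bp or more, and the strongest was taken. Motifs were searched in windows of 200 bp. Counts of genes with a summit at a promoter or in the wider window were tested on simulated peaks. Calls of exon, UTR, intron and flank, replicate matching and motif counts were not tested in this way. The named genes are the 10 genes, every gene with a TSS within 1000 bp of a promoter summit of theirs, and every other architecture gene with a promoter summit. Genes that start near the mod(mdg4) summits, ouib and the genes listed without a summit are outside this rule, and were picked with their values in view. The members, gene lists and motifs were chosen with earlier results of these data known. Alternatives covered the peaks counted, the distances, the TSSs, the scaling and each replicate left out. Python 3.11.15, numpy 2.4.6, pandas 2.3.3 and matplotlib 3.10.9 were used.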

Additional observations from a re-analysis of the deposited data

How the results depend on the processing

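With replicate 1, 2 or 3 left out, 6, 6 and 7 of the 10 genes had a summit in or within 5 kb, against 34.7%, 34.5% and 35.7% of all protein-coding genes, and 5, 5 and 6 had one at a promoter, against 11.1%, 10.9% and 11.7%. BEAF-32 was the gene lost without replicate 1 or replicate 2. The 13 optimal summits became 6 among the 500 strongest peaks, 25 among the 10096 strongest pooled peaks and 8 in gene bodies alone. In gene bodies alone 4 of the 10 genes had a summit. The share of all protein-coding genes was not counted for that setting, so the 4 cannot be set against it. Counting the outermost TSS alone left 5 genes with a promoter summit, without Trl, against 12.6% of all protein-coding genes. With the 500 best peaks of each replicate as the scale, whose median is higher by construction, the median signal of the genes' strongest peaks was 0.867 in place of 2.82, and it ran from 2.61 to 3.10 with a replicate left out. A promoter peak in all 3 replicates was found for 5 genes among the best peaks. When every listed peak counted it was found for 8, against 26.7% of all protein-coding genes. In windows of 100 bp, GAGAG was in 0 and TGCATA in 1 of the 13. The 6 other architecture genes with a promoter summit became 3 to 4 with a replicate left out, the lowest without replicate 2 or replicate 3 (12%, against 10.9% and 11.7% of all protein-coding genes). For counts, leaving out a replicate asked for overlap of an optimal peak with a best peak of both others. The optimal list itself still came from all 3 replicates, so these counts could stay or fall but not rise. Relative signal near 1 changed side: Dref had 0.938 without replicate 1 and 0.992 with the nearest replicate summit in place of 1.08, and BEAF-32 had 1.03 without replicate 3 in place of 0.871. Unknown depth limits what can be said of the weaker peaks.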
